A study of Mus musculus with 4 samples.

Results

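The aryl hydrocarbon receptor (AhR) pathway was examined through 6 genes chosen by name, which were the receptor gene Ahr, its partner Arnt, the repressor Ahrr and the target genes Tiparp, Cyp1b1 and Nqo1. Of these, 4 (Ahr, Arnt, Ahrr and Tiparp) were found by symbol among the 12596 genes of the deposited table, while Cyp1b1 and Nqo1 were not analysed here. Macrophages and monocytes of the colon came from 4 male C57/Bl6N mice, wild-type and each sampled on its own. Mice 14 and 15 were gavaged with diesel exhaust particles (DEP), the soot of diesel engines, at 12 µg in 200 µL of phosphate-buffered saline (PBS) on 5 days a week for about 6 months, and mice 2 and 3 received PBS on its own. The cells had been sorted for CD11b together with Ly6C or CD64. Every mouse was loaded into its own well, so that the mouse and the well cannot be told apart. The question addressed was whether macrophages of mice given diesel particles carried more or less RNA of the receptor, its partner, its repressor and its targets.

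AhR is a transcription factor of the bHLH-PAS family that waits in the cytoplasm in a complex with the chaperone Hsp90. Planar aromatic hydrocarbons, dioxins and tryptophan metabolites bind it, after which it enters the nucleus, pairs with Arnt and switches on genes that carry xenobiotic response elements. Among these are cytochrome P450 enzymes that oxidise the ligand, and both Ahrr and Tiparp, whose products act back on the receptor, so that RNA of these targets is commonly used as a readout of receptor activity. In the gut the receptor is known for sensing dietary and microbial ligands.

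The promoters of both feedback genes are shown because the core of the xenobiotic response element, GCGTG on the forward strand or CACGC on the reverse, lies in them. Each stretch was taken from RefSeq promoters (GRCm38.p6), runs 5′ to 3′ on the strand of the gene, and has every core in capitals.
Tiparp, chr3:65528237-65528321, plus strand: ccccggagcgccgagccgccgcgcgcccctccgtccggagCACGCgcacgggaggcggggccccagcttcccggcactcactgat
Ahrr, chr13:74292332-74292478, minus strand: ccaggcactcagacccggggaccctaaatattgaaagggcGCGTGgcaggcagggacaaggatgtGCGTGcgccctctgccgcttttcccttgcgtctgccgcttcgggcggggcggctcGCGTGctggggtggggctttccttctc
Tiparp held 1 core, on the reverse strand with its first base at -170 from the start site, and Ahrr held 3, all forward, at -107, -82 and -27. The promoter of Arnt held 1 forward core at -29, and no entry was found for Ahr. At least 1 core stood in 28.2% of all 32851 promoters of the same length (250 bases before the start site) and in 43.2% of the 12219 promoters of genes in the table, and 3 or more in 2.77% and 5.08%. A core is a match of letters and not a binding site.

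The genes lay on GRCm38 at chr12:35497974-35535038, minus strand (Ahr, ENSMUSG00000019256), chr3:95434388-95497240, plus strand (Arnt, ENSMUSG00000015522), chr13:74211118-74292331, minus strand (Ahrr, ENSMUSG00000021575) and chr3:65528410-65555518, plus strand (Tiparp, ENSMUSG00000034640). Ahr overlaps the lincRNA gene Gm48236 on the opposite strand, to which only 6 UMIs were assigned. Arnt overlaps the processed pseudogene Gm42672 on its own strand and Tiparp the transcribed pseudogene 4931440P22Rik on the opposite strand, and both of these had 0 UMIs.

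In this droplet assay each captured RNA molecule is tagged at its 3′ end with a barcode of its own, the unique molecular identifier (UMI), and counting these identifiers counts molecules regardless of transcript length. Levels below are UMIs scaled to the total UMIs of the same mouse and cell set (counts per 1000000, CPM). Of the 943 cells, 40 that expressed at least 3 markers of some other cell class were set aside. The 903 remaining had between 180 and 314 cells, 710218 and 1246491 UMIs, and a median of 2692 to 4683.5 UMIs per cell in each mouse. The deepest and the shallowest mouse per cell were both PBS mice. A single barcode was shared between libraries. The sorted identity was borne out by Csf1r, the receptor for the macrophage growth factor, with a UMI in 83.6% of cells, and by Cd68 and Fcgr1 (CD64) in 74.6% and 52.4%. Genes of the other sort markers were found in fewer cells, with Itgam (CD11b) in 33.7% and Ly6c2 (Ly6C) in 13.1%.

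Cells were divided by markers that include no gene of the pathway. Plac8-high cells (191, with 2 or more Plac8 UMIs) resembled monocytes, with Ly6c2 at 755 CPM against 4.30 CPM in C1q-high cells. C1q-high cells (752, with the complement genes C1qa, C1qb and C1qc together at 0.5% or more of UMIs) resembled mature macrophages, with the mannose receptor Mrc1 at 288 against 18.9 CPM. A total of 56 cells met both rules and 16 met neither, and the values just given leave out those that met both. Dendritic cell markers, of which 4 of 7 listed were in the table, were not used to set cells aside. On the same basis they summed to 107, 280, 0 and 180 CPM in the Plac8-high cells of mice 14, 15, 2 and 3 (11, 51, 0 and 16 UMIs). In C1q-high cells they summed to 13.7 to 28.8 CPM. The limits are points on a range, since 57 cells had 1 Plac8 UMI, 18 had 2 and 11 had 3, and 11 cells held 0.25 to 0.5% of C1q against 51 with 0.5 to 1%. Plac8-high cells made up 27.2% and 23.3% of the cells of the DEP mice and 18.1% and 15.7% in PBS controls.

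All 4 genes were scarce in the macrophages. Tiparp, an ADP-ribosyltransferase, was the most abundant with 287 UMIs, and it had a UMI in 22.9% of the cells (207 of 903). Ahr followed with 112 UMIs in 10.5% (95 cells), Arnt with 80 UMIs in 7.75% (70 cells), and Ahrr with 15 UMIs in 1.66% (15 cells), never more than 1 per cell. The mean over the 4 mice was 72.4 ± 18.6 CPM for Tiparp, 27.6 ± 5.19 for Ahr, 20.5 ± 5.33 for Arnt and 3.48 ± 1.503 for Ahrr (SD, n = 4). Tiparp stood above Ahr in every mouse, and Ahrr below the other 3, whereas Ahr and Arnt, at 24.8 to 35.4 and 12.9 to 25.3 CPM, overlapped between mice. A share of cells with a UMI reflects depth and free RNA as well as expression. In 24 B or plasma-like cells of the same table (median 4489.5 UMIs per cell), 16.7% had a UMI of Ahr, 0% of Arnt, 8.33% of Ahrr and 12.5% of Tiparp, and with so few cells the exact binomial 95% intervals reached 37.4%, 14.3%, 27.0% and 32.4%. The shares in macrophages lay within these intervals, so that they are not read as expression in a given fraction of cells. As a level, Tiparp was at 18.6 CPM in these B or plasma-like cells (3 UMIs, exact Poisson 95% interval 3.84 to 54.4). Over all macrophages it was at 71.7 CPM when pooled (63.6 to 80.5), and these 2 intervals did not overlap. Those of Ahr, Arnt and Ahrr did. The intervals cover counting error only.

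**Figure D1:**
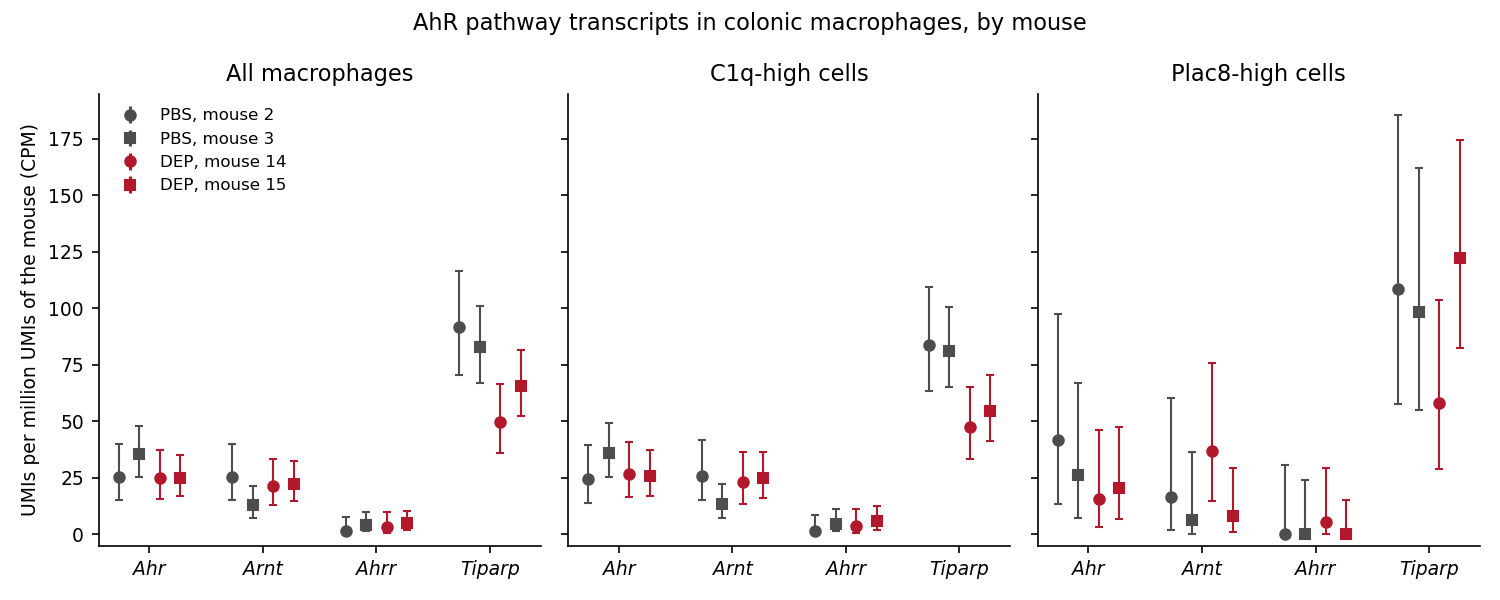
Level of each of the 4 genes (x axis) in CPM (y axis) in all macrophages, C1q-high cells and Plac8-high cells. Each point is 1 mouse (grey PBS, red DEP) and bars are exact Poisson 95% intervals, which cover counting error only; in C1q-high cells the Tiparp points of the DEP mice (47.3 and 54.4) lie below those of the PBS mice (84.0 and 81.3).

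The receptor itself was at 24.8 and 24.9 CPM in DEP mice 14 and 15 (22 and 31 UMIs) and at 25.3 and 35.4 CPM in PBS mice 2 and 3 (18 and 41 UMIs) over all macrophages. Both DEP mice were thus nominally below both PBS mice, but mouse 2 was within 1 CPM of the DEP mice and only mouse 3 stood apart. The group means of 24.8 ± 0.0707 and 30.4 ± 7.09 CPM (SD, n = 2) corresponded to a log2 fold change of -0.35 (SE 0.29) with an adjusted p of 0.877 in edgeR's quasi-likelihood test. Within C1q-high cells Ahr was at 26.9 and 25.8 CPM in DEP-exposed mice and at 24.4 and 35.9 in PBS controls, so that the groups overlapped. Within Plac8-high cells it was at 15.8 and 20.4 CPM in DEP-exposed mice and at 41.8 and 26.2 in PBS controls. There the groups did not overlap, yet these levels rest on 3, 5, 5 and 4 UMIs, and the ratio of the pooled counts was 0.557 with an exact 95% interval from 0.187 to 1.63.

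Arnt, the obligate partner of the receptor that also serves the hypoxia response, did not separate the groups. Over all macrophages it was at 21.4 and 22.5 CPM in DEP-exposed mice (19 and 28 UMIs) and at 25.3 and 12.9 CPM in PBS controls (18 and 15 UMIs). The spread between the PBS mice was larger than the difference of the means, 21.9 ± 0.757 against 19.1 ± 8.77 CPM (SD, n = 2), with a log2 fold change of 0.28 (SE 0.37) and an adjusted p of 0.913 (edgeR). In C1q-high cells its levels of 23.0, 24.8, 26.0 and 13.2 CPM in mice 14, 15, 2 and 3 followed the same order. Plac8-high cells held only 7, 2, 2 and 1 Arnt UMIs in those mice, of which most came from mouse 14, and no difference was detectable at this depth.

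Ahrr, which competes with the receptor for Arnt, was near the limit of detection. Mice 14 and 15 had 3 and 6 UMIs (3.38 and 4.81 CPM) and mice 2 and 3 had 1 and 5 UMIs (1.41 and 4.31 CPM), so that the groups overlapped. All 15 UMIs came from C1q-high cells, of which 1 cell was also Plac8-high. The ratio of the pooled counts, DEP over PBS, was 1.31 with an exact 95% interval from 0.418 to 4.49, which leaves both a decrease and an increase possible. Ahrr was below the 5% of cells required for a test and was not tested. None of the 135 cells that were Plac8-high but not C1q-high had an Ahrr UMI, which allows a level of up to 7.08 CPM and up to 2.22% of cells with a UMI, and the level of 4.30 CPM in the cells that were only C1q-high was below that limit.

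Tiparp, a direct target whose protein restrains the receptor, showed the widest separation of the groups among the 4 genes. Over all macrophages it was at 49.5 and 65.8 CPM in DEP-exposed mice (44 and 82 UMIs) and at 91.5 and 82.8 CPM in PBS controls (65 and 96 UMIs). Both DEP mice lay below both PBS mice, with means of 57.7 ± 11.5 and 87.2 ± 6.16 CPM (SD, n = 2). In C1q-high cells the separation was wider. There the DEP mice were at 47.3 and 54.4 CPM (37 and 57 UMIs) and the PBS mice at 84.0 and 81.3 CPM (55 and 86 UMIs), and the pooled ratio was 0.624 (exact 95% interval 0.476 to 0.816). The interval covers counting error within these mice and not the spread between them. The fitted log2 fold change was -0.59 (SE 0.21, 95% interval -1.05 to -0.13) over all macrophages and -0.69 (SE 0.22, 95% interval -1.16 to -0.23) in C1q-high cells. Neither passed the correction for all genes tested, at an adjusted p of 0.760 and 0.842 in edgeR's quasi-likelihood test, and Tiparp ranked 104 of 5560 and 39 of 5734 genes by p. In Plac8-high cells its levels were 58.0 and 122 CPM in DEP-exposed mice (11 and 30 UMIs) and 109 and 98.1 CPM in PBS controls (13 and 15 UMIs). Here mouse 15 was the highest and mouse 14 the lowest of all, so that the groups overlapped, and the log2 fold change was -0.18 (SE 0.41, adjusted p = 0.963, edgeR).

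The lower Tiparp level in DEP mice was spread over many cells. The 94 UMIs of the DEP mice in C1q-high cells came from 27 and 47 cells and the 141 UMIs of the PBS mice from 43 and 50 cells, and no cell held more than 6. A Tiparp UMI was found in 18.4% and 19.2% of C1q-high cells in DEP-exposed mice and in 24.9% and 26.7% in PBS controls. After every cell was thinned to 1000 UMIs in a single random draw, the shares were 2.04% and 4.08% against 9.83% and 6.42%. They came from 3, 10, 17 and 12 cells in mice 14, 15, 2 and 3, and the draw was not repeated. Shares of the DEP mice were thus the lower both at the deposited depth and, in this draw, at equal depth.

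Markers of other cells and states were summed in the same C1q-high cells. Of the 9 B or plasma cell markers listed, 5 to 7 had a UMI in the C1q-high cells of each mouse (most UMIs were Jchain, a plasma cell gene), and their summed level was 164 and 181 CPM in DEP-exposed mice and 203 and 196 in PBS controls, so that both DEP mice were the lower. Of 11 granulocyte and mast cell markers, 4 were in the table, with 3, 1, 5 and 6 UMIs in mice 14, 15, 2 and 3. The summed level of 8 monocyte markers was 384 and 291 CPM in DEP-exposed mice and 237 and 340.4 CPM in PBS controls, and the groups overlapped, whereas over all macrophages it was 757 and 832 CPM against 527 and 726 CPM. The 9 markers of resident macrophages summed to 28660 and 27400 CPM in DEP-exposed mice and 27170 and 26070 CPM in PBS controls, both DEP mice being the higher. Nearly all of this sum was 1 gene, H2-Ab1. Pooled over the mice, H2-Ab1 was at 26070 CPM in cells that were only C1q-high, where Adgre1 came next at 548 CPM. The sum therefore says little of the other resident markers. The 17 genes known to rise during warm enzymatic digestion of tissue summed to 22880 and 30300 CPM in the C1q-high cells of the DEP mice and to 27210 and 27550 CPM in those of the PBS mice, so that the groups overlapped. Of these 17, 12 had a log2 fold change below 0 in C1q-high cells and 0 passed the test, with Jund at -0.58 (SE 0.18) and Dusp1 at -0.55 (SE 0.23) among the lower. The part of these features in the Tiparp difference was not tested. In bulk sums over all macrophages, fewer cells that carry a transcript and less of it per cell cannot be told apart.

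Exact permutation of 4 mice between 2 groups allows 6 arrangements, so that its two-sided p cannot go below 0.333, the value reached by Ahr and Tiparp over all macrophages. Of the 3 genes tested, 2 (Ahr and Tiparp) had both DEP mice below both PBS mice over all macrophages, where 17.2% of all genes tested did. The count was 1 (Tiparp) in C1q-high cells beside 17.3% of all genes, and 1 (Ahr) in Plac8-high cells beside 16.6%. At an adjusted p under 0.05, 0 of the 3 genes were called in any of the 3 comparisons. The background was as low, with 0.018% of genes called over all macrophages (1 of 5560) and 0% in both C1q-high cells (0 of 5734) and Plac8-high cells (0 of 5139). At an unadjusted p under 0.05, 361, 335 and 348 genes passed in edgeR, in that order. DESeq2 called 1 gene over all macrophages and 0 in each class, and the likelihood ratio test called 9, 2 and 13.

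**Figure D2:**
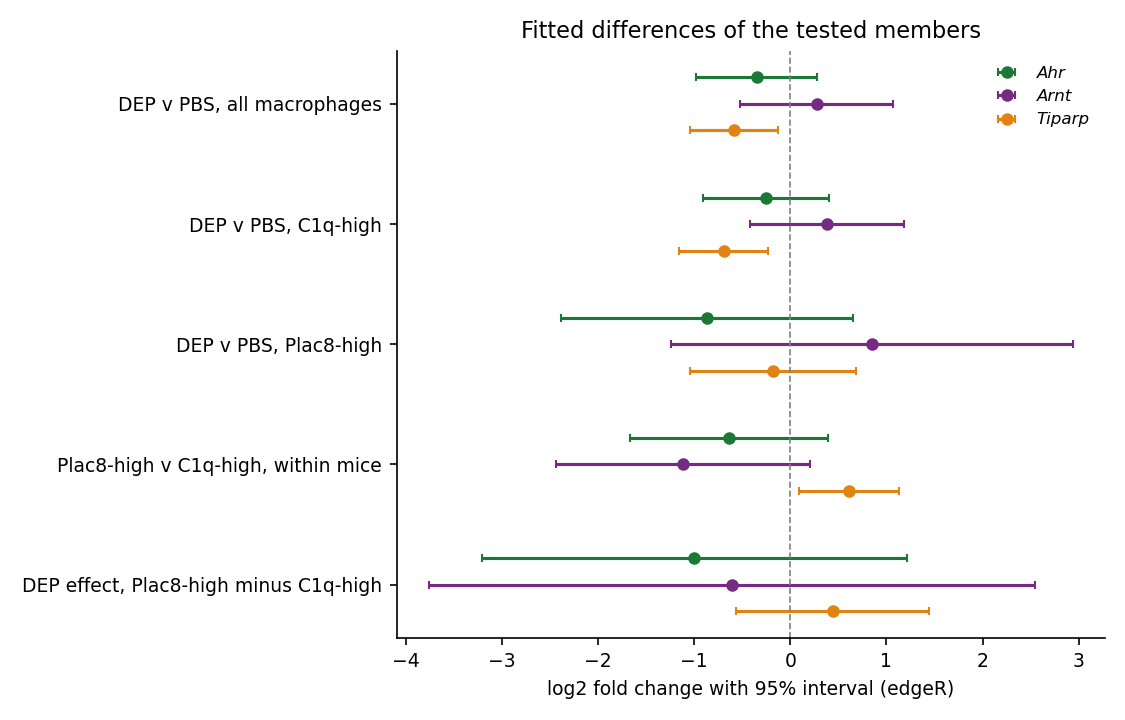
Log2 fold change (x axis) of Ahr, Arnt and Tiparp in each comparison (y axis), with 95% intervals from edgeR. The Tiparp intervals for DEP against PBS lie below 0 over all macrophages (-1.05 to -0.13) and in C1q-high cells (-1.16 to -0.23), while those of Ahr and Arnt cross 0 throughout; no value passed the adjusted threshold.

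Monocyte-like and mature cells of the same mice were compared next, leaving out the cells that met both rules. Tiparp was higher in the Plac8-high cells of 4 of 4 mice. It was at 67.9 and 126 CPM in the Plac8-high cells of mice 14 and 15 and at 47.5 and 50.8 CPM in their C1q-high cells. In mice 2 and 3 it was at 200.1 and 101 CPM in Plac8-high cells and at 88.9 and 80.5 CPM in C1q-high cells. The gap was widest in mice 15 and 2, and the Plac8-high values rest on 7, 23, 10 and 9 UMIs in mice 14, 15, 2 and 3. The log2 fold change between the classes was 0.61 (SE 0.26, 95% interval 0.09 to 1.13) with an adjusted p of 0.0878 (edgeR, mouse as block), short of the threshold.

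The receptor and its partner tended to the other side without passing the test. Ahr had 9 UMIs in Plac8-high cells (9.70 to 40.03 CPM) and 94 in C1q-high cells (22.2 to 37.2 CPM), was lower in Plac8-high cells of 3 of 4 mice and had a log2 fold change of -0.64 (SE 0.52, adjusted p = 0.452, edgeR). Arnt had 5 and 68 UMIs, was lower in 4 of 4 mice and had a log2 fold change of -1.12 (SE 0.67, adjusted p = 0.264, edgeR). The classes differed widely in other genes, since 20.6% of the 5566 genes tested were called (484 higher and 662 lower in Plac8-high cells), beside 0 of the 3 pathway members. The detection filter of 5% was taken over both classes together, with 696 C1q-high and 135 Plac8-high cells. A gene found mainly in C1q-high cells thus entered the test more easily, which affects the counts called higher and lower. Arnt itself passed the filter through its C1q-high cells, with a UMI in 8.48% of these and in 3.70% of Plac8-high cells. Its lower level in Plac8-high cells is given as a description only. With so few UMIs in the Plac8-high cells, the intervals of -1.67 to 0.39 for Ahr and -2.44 to 0.21 for Arnt leave room for differences in either direction.

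**Figure D3:**
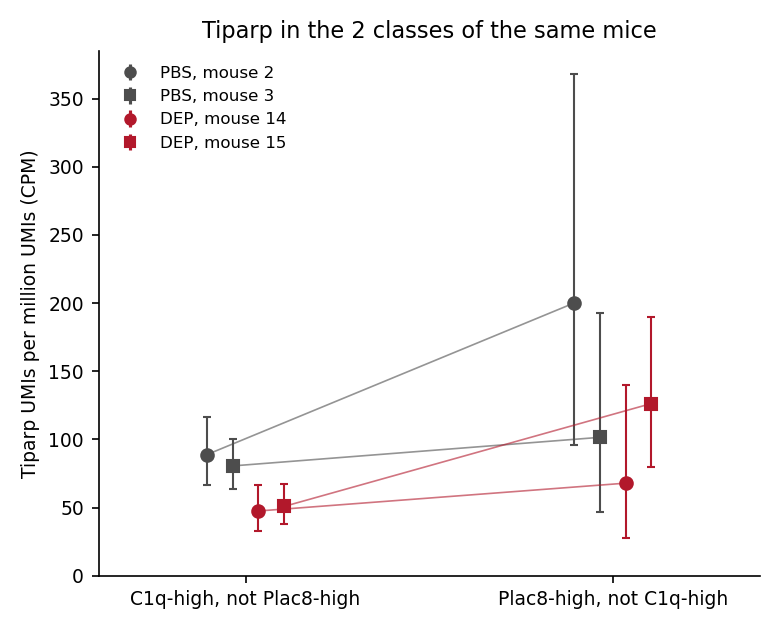
Tiparp level in CPM (y axis) in C1q-high cells that were not Plac8-high and Plac8-high cells that were not C1q-high (x axis). Points are mice with exact Poisson 95% intervals (counting error only) and a line joins the values of 1 mouse; the level was higher in the Plac8-high cells of 4 of 4 mice, from 67.9 to 200.1 CPM against 47.5 to 88.9 CPM.

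Whether DEP acted differently on the classes was tested as an interaction. The difference of the log2 fold changes, Plac8-high minus C1q-high cells, was 0.44 (SE 0.51, 95% interval -0.56 to 1.44) for Tiparp, -1 (SE 1.13) for Ahr and -0.60 (SE 1.61) for Arnt, each with an adjusted p of 1 (edgeR). None of the 3 was called, beside 0.305% of all genes (17 of 5566). A difference between the classes in the Tiparp response was therefore not shown, although the groups separated in C1q-high cells and overlapped in Plac8-high cells.

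Within single cells, the transcripts were counted in pairs. Of 95 cells with an Ahr UMI, 30.5% also had a Tiparp UMI, and of the 808 others 22.03% did, but the former were the deeper cells with a median of 5375 against 3566.5 UMIs. After thinning to 1000 UMIs per cell, in the same single draw as above, 0 of 26 cells with an Ahr UMI had one of Tiparp. This allows a share of up to 11.5%, against 6.61% of the other 877 cells. Between Ahr and Tiparp no relation was detectable at this depth. Ahrr and Arnt were found together in 6 of the 15 cells with an Ahrr UMI, against 7.21% of the other 888 cells. These 6 cells came from mice 14, 15 and 3 (1, 3 and 2 cells), and cells with an Ahrr UMI had a median of 5854 UMIs against 3729.5 in the others. After thinning, only 2 cells kept an Ahrr UMI, and 1 of them had one of Arnt, against 2.22% of the others. Of the 6 pairs, the other 5 had 0 cells with both after thinning. This pair was singled out after its values were seen, cells of 1 mouse are not replicates, and no test was made.

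A list of 53 further genes of the pathway was examined by role, of which 42 were analysed here and 25 had enough UMIs for a test over all macrophages. Of these, 12 had a log2 fold change above 0 and 13 below, with a median of -0.040 beside -0.0082 over all genes tested, and 0 were called. In C1q-high cells 15 of 25 were above 0 and in Plac8-high cells 10 of 23, again with 0 called.

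Chaperones that hold the receptor in the cytoplasm shared a direction over all macrophages. All 4 genes of the complex had log2 fold changes between 0.30 and 0.48 in DEP mice (median 0.42, beside -0.0082 over all genes tested), and 0 were called. In C1q-high cells 4 of 4 were above 0, and in Plac8-high cells 3 of 4, with Hsp90aa1 at -0.06. Both DEP mice stood above both PBS mice in 1102 of the 5560 genes tested over all macrophages, as they did for Hsp90ab1 and Ptges3. Hsp90ab1, a constitutive Hsp90 and the most abundant gene of the list, was at 924 and 1394 CPM in DEP-exposed mice and 805 and 838 CPM in PBS controls, with a log2 fold change of 0.48 (SE 0.17, adjusted p = 0.760, edgeR). Without mouse 15 it was 0.14, and without mouse 14 it was 0.74. Hsp90aa1 was at 621 and 1130 CPM in DEP-exposed mice and 605 and 797 in PBS controls, so that the groups overlapped and mouse 15 was the highest. The co-chaperone Ptges3 (p23) was at 112 and 114 CPM against 78.9 and 87.1, at a log2 fold change of 0.41 (SE 0.18, adjusted p = 0.760, edgeR). Hsp90 genes also respond to heat and cell stress, and Hspa8 and Dnajb1 of the digestion list had log2 fold changes of 0.32 and 0.37 in the same comparison, neither called. Hspa1a and Hspa1b of that list were near 0, at 0.0074 and -0.013, and 12 of its 17 genes were below 0. The relation between the Hsp90 genes and the digestion list was not tested.

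Among other bHLH-PAS proteins, Hif1a, the oxygen-regulated factor that competes for Arnt, was at 66.4 and 59.4 CPM in DEP-exposed mice and 39.4 and 58.7 CPM in PBS controls (log2 fold change 0.29, adjusted p = 0.870, edgeR). Clock and Arntl, the circadian pair, had 72 and 16 UMIs in all. Coactivators and corepressors were low and even, with Ncor1, Ncoa3 and Nrip1 leading at 179, 168 and 168 UMIs and log2 fold changes between -0.22 and 0.017 in DEP mice. The 6 tryptophan and kynurenine enzymes analysed had only 7 to 35 UMIs each, led by Il4i1, Kmo and Kynu with 35, 30 and 26, and none reached the test.

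Other targets of the receptor did not move together. Cdkn1a, a cell cycle inhibitor, was at 430 and 601 CPM in DEP-exposed mice and 579 and 470 CPM in PBS controls over all macrophages, where the groups overlapped. Nfe2l2, which encodes the redox factor Nrf2, was at 343 and 389 CPM in DEP-exposed mice and 453 and 392 CPM in PBS controls (log2 fold change -0.22, adjusted p = 0.851, edgeR). Il10, the anti-inflammatory cytokine of gut macrophages, was at 54.0 and 93.1 CPM against 84.5 and 61.2 CPM, and again the groups overlapped. For Nfe2l2, by little, and Xdh (28.1 and 35.3 against 38.0 and 38.8 CPM) both DEP mice were below both PBS mice. The same held for 17.2% of all genes tested. For Entpd1 they were above (58.5 and 62.6 against 39.4 and 50.9 CPM), as for 1102 of the 5560 genes tested. None of these was called. Of the 16 targets listed, 10 were analysed and 5 tested.

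Of 10 other enzymes of aromatic hydrocarbon and quinone metabolism, 8 were tested and 6 of these had a log2 fold change below 0. Their median was -0.12, beside -0.0082 over all genes tested, and 0 were called. The glutathione transferase Gstp1 had 881 UMIs and the aldose reductase Akr1b3 had 519, with log2 fold changes of -0.15 and -0.087. Gstm1 lay farthest from 0, at -0.51 (SE 0.26, adjusted p = 0.801, edgeR). It was at 31.5 and 51.3 CPM in DEP-exposed mice and 59.1 and 60.4 CPM in PBS controls. Both DEP mice were thus below both PBS mice, as in 17.2% of all genes tested. Nqo1 is also a target of Nrf2, so the Nrf2 response was examined in its place through 10 genes, of which 7 were tested, 4 were above 0 and 0 were called. The peroxiredoxin Prdx1 was even across the mice at 753 to 816 CPM. Hmox1, which degrades heme, was at 134 and 319 CPM in DEP mice 14 and 15 and 131 and 139 CPM in PBS mice 2 and 3, so that mouse 15 stood apart from the other 3. Its log2 fold change was 0.74 (SE 0.29, adjusted p = 0.760, edgeR) and it was -0.041 without mouse 15. With no filter on low genes Hmox1 was called (adjusted p = 0.0148, edgeR), and its adjusted p was 0.666 to 1 in the other alternatives run. Sqstm1, an autophagy receptor, had a log2 fold change of -0.16.

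**Figure D4:**
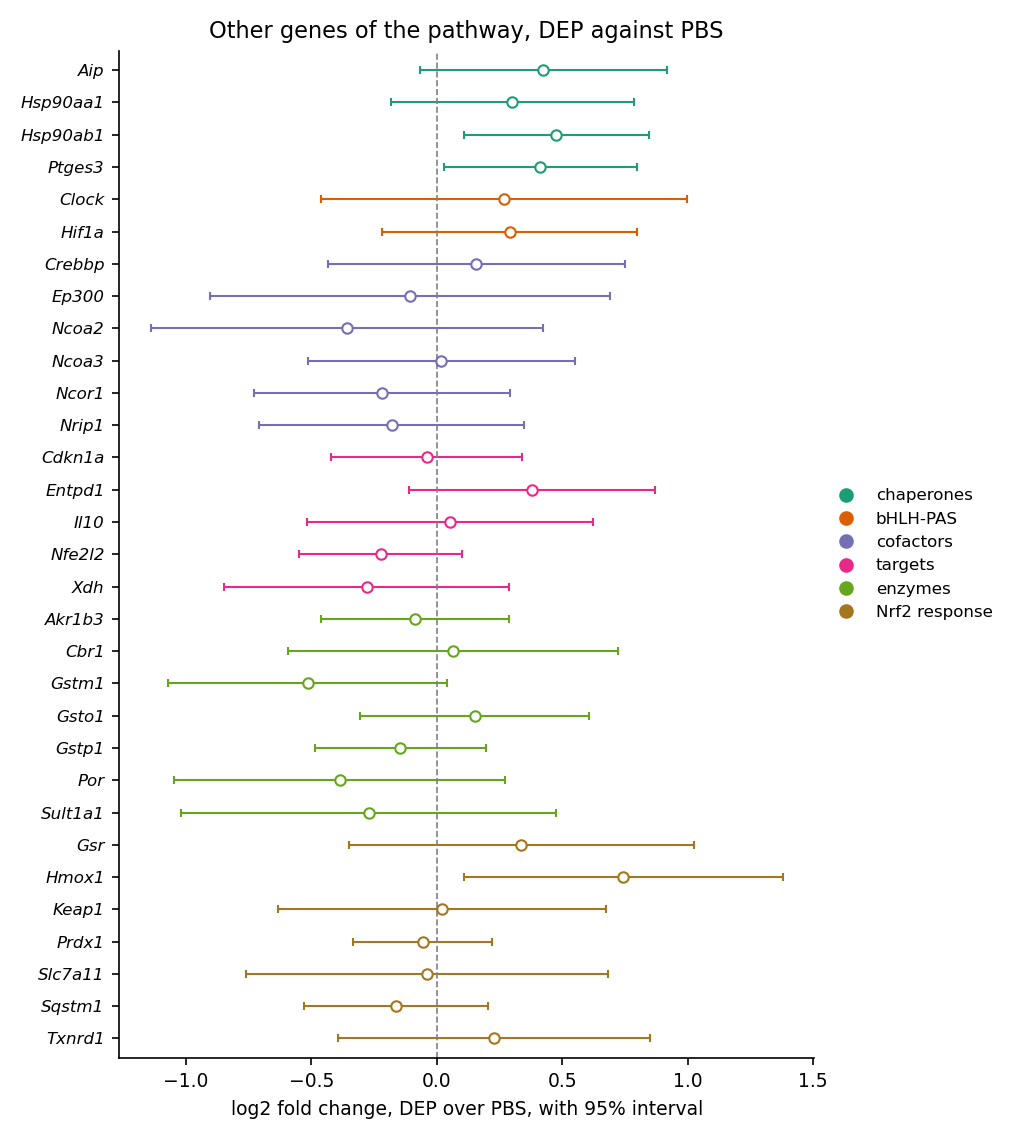
Log2 fold change of DEP over PBS in all macrophages (x axis) with 95% intervals from edgeR for 24 of the further pathway genes and the 7 Nrf2 response genes tested (y axis), coloured by role. Open points did not pass an adjusted p under 0.05; all points are open, and the 4 chaperone genes lie between 0.30 and 0.48.

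Between the classes the same lists were less even. Of the 25 further pathway genes tested, 3 were called higher and 8 lower in Plac8-high than in C1q-high cells, and of the 7 Nrf2 response genes 3 were higher and 1 lower, beside the 20.6% of all genes called. These counts are likewise affected by the detection filter, which genes of the more numerous C1q-high cells passed more easily. The median of the 25 was -0.47, beside -0.11 over all genes tested.

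Il10 fell most among the targets, with 5 UMIs in Plac8-high cells (0 to 40.03 CPM) and 275 in C1q-high cells (64.7 to 105 CPM), a log2 fold change of -3.11 (SE 0.47, adjusted p = 1.43e-08, edgeR). It was lower in 4 of 4 mice. Il10 passed the detection filter through its C1q-high cells. Across the mice it had a UMI in 12.3% to 17.4% of these and in 0% to 12.5% of Plac8-high cells. Entpd1 (CD39), which degrades extracellular ATP, fell by 2.19 on the log2 scale (SE 0.47), and Nfe2l2 fell by 0.94 (SE 0.18). Xdh, xanthine dehydrogenase, rose instead, at 87.3 to 147 CPM in Plac8-high cells and 20.1 to 35.9 in C1q-high cells. Its log2 fold change was 1.74 (SE 0.33, adjusted p = 6.65e-06, edgeR).

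The Nrf2 response was split as well. Glutathione reductase Gsr rose most, from 6.10 to 12.1 CPM in C1q-high cells to between 77.6 and 170.3 CPM in Plac8-high cells, at a log2 fold change of 3.33 (SE 0.38, adjusted p = 1.47e-13, edgeR). Gsr passed the detection filter, taken over both classes together, through its Plac8-high cells. Across the mice it had a UMI in 24.0% to 37.5% of these and in 2.55% to 6.20% of C1q-high cells. The cystine transporter Slc7a11 was at 155 to 340.2 CPM against 30.2 to 88.9 CPM (log2 fold change 1.85, SE 0.23) and Txnrd1, thioredoxin reductase, had a log2 fold change of 1.02 (SE 0.38). Sqstm1 fell by 0.97 (SE 0.21) on the log2 scale. Each of these 4 passed the adjusted threshold, and Txnrd1 was the nearest to it at an adjusted p of 0.0430 (edgeR).

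Of the coregulators, Nrip1 (RIP140) fell by 2.93 (SE 0.63) on the log2 scale, with 3 UMIs in Plac8-high and 150 in C1q-high cells. Hif1a rose by 0.89 (SE 0.29) and Hsp90ab1 fell by 0.39 (SE 0.14). Among the enzymes Gstm1 rose by 1.20 (SE 0.29), while the log2 fold changes of Cbr1 and Sult1a1 were -2.20 (SE 0.72) and -2.40 (SE 0.85), the latter turning to 0.62 with all deposited cells. Cbr1 had 3 UMIs in Plac8-high and 90 in C1q-high cells, and Sult1a1 had 2 and 73. Nrip1, Cbr1 and Sult1a1 thus passed the detection filter through their C1q-high cells. The calls of Hif1a, Hsp90ab1, Cbr1, Sult1a1 and Txnrd1 were each lost in at least 4 of the alternative settings, whereas those of Il10, Xdh, Nfe2l2, Nrip1, Gsr and Slc7a11 were lost in none.

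**Figure D5:**
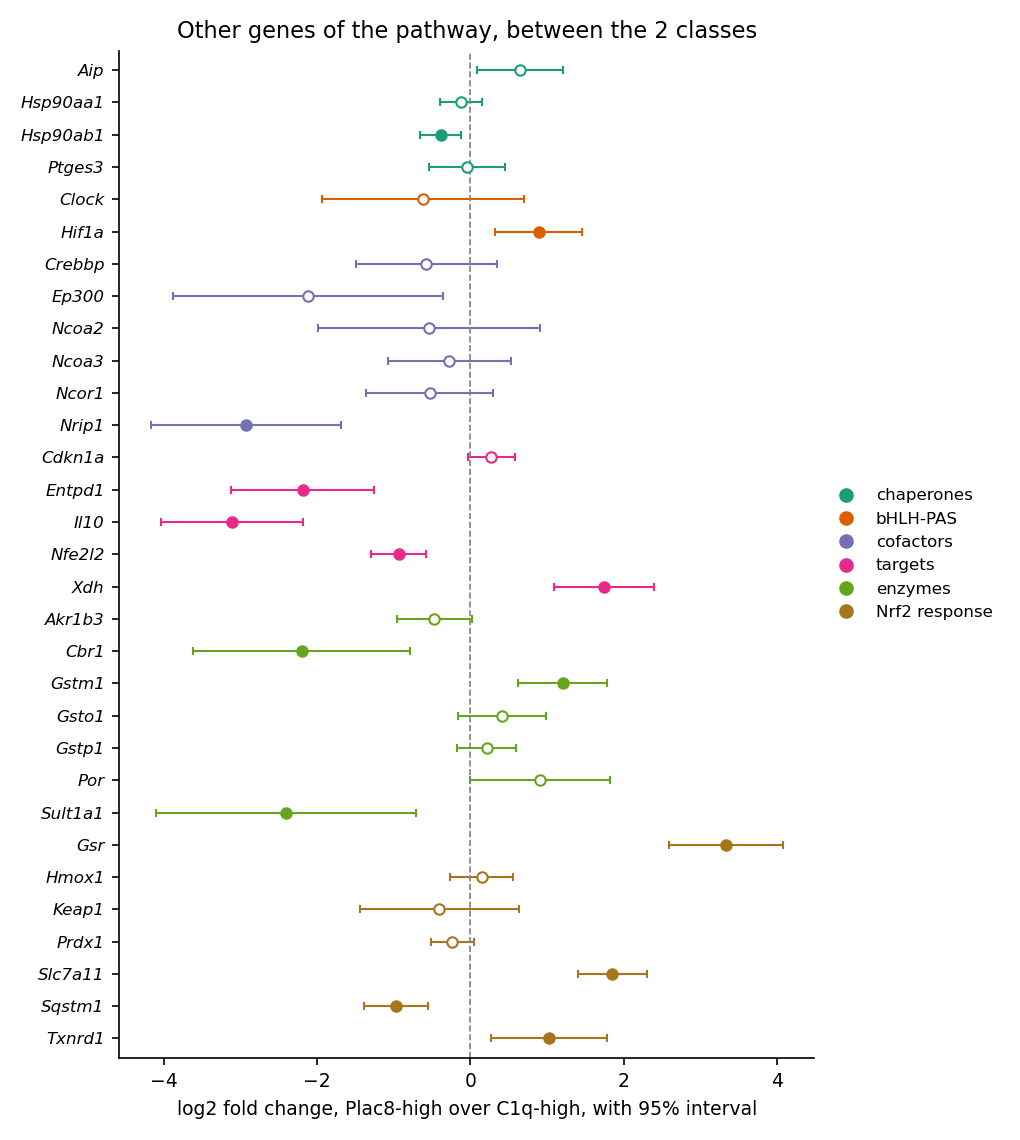
Log2 fold change of Plac8-high over C1q-high cells of the same mice (x axis) with 95% intervals from edgeR for the same 31 genes (y axis), coloured by role. Filled points passed an adjusted p under 0.05; Gsr lies farthest to the right at 3.33 and Il10 farthest to the left at -3.11.

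In the test of whether DEP acted differently on the classes, Cdkn1a was the single gene called among the 25. In Plac8-high cells that were not C1q-high it was at 756 and 1011 CPM in DEP-exposed mice and 580.4 and 462 CPM in PBS controls. In C1q-high cells that were not Plac8-high it was at 383 and 522 CPM in DEP-exposed mice and 572 and 473 CPM in PBS controls. The DEP mice were thus the higher in Plac8-high cells, and the groups overlapped in C1q-high cells. The difference of the log2 fold changes was 1.08 (SE 0.28, adjusted p = 0.0404, edgeR), and the call was lost in 12 of 16 alternative settings, among them leaving out any 1 of the 4 mice.

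As a description of their pattern, the genes most like each member were sought among 5492 genes outside the lists, by Pearson's correlation of log2 CPM over the 8 libraries formed by 4 mice and 2 classes. Those nearest to Ahr were Atg10 (r = 0.976), Aagab (0.966) and Aftph (0.962). Arnt was most like Pole4 (0.936), Aga (0.932) and Gmfb (0.921). Tiparp was most like Ring1 (0.948), the ribosomal pseudogene Rpl27-ps3 (0.937), whose reads may belong to its parent gene, and Pitpna (0.922). The 8 libraries share mice and depth, and the highest of so many correlations over 8 points is large in any data, so that these names carry no statement on function.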

How the data were processed

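Per the labels and the methods, the authors aligned 10x 3′ v2 reads to mm10 with Cell Ranger (STAR 2.6.1a) and Ensembl gene models, merged the mice without downsampling, and filtered cells and genes. They reported no suspicious doublets, and no caller was run here. The deposited values are raw UMI counts, and cell names carry the mouse. The members, lists and tests were chosen with earlier results of these data known. Doubtful cells were left out by markers of other classes rather than by the reference annotation of the authors, which was not used here.

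UMI counts were summed per mouse and cell set (depth 710218 to 1246491 UMIs over all macrophages, 119711 to 245253 in Plac8-high and 655018 to 1057576 in C1q-high cells). They were fitted in edgeR 4.0.16 (R 4.3.3) with TMM factors, the quasi-likelihood test and Benjamini-Hochberg adjustment, at an adjusted p under 0.05. The gene filter of the authors was kept (over 1 CPM in 2 or more libraries, detection in 5% of cells). The authors took the 5% within each cluster, whereas in the fits of the 2 classes it was taken over the cells of both classes together. The fits of the 2 classes had the mouse as a block, and each DEP against PBS fit held its own 4 libraries. Library totals without TMM factors gave the CPM values. Intervals at 95% were exact (scipy 1.17.1), and they and the limits that a count of 0 allows (3 UMIs) cover counting error only. DESeq2 1.42.0 was one alternative. The scripts were tested on simulated data. Genes named are the members, those called and the 3 with the most UMIs in each role, and the 3 most like each member. Jund, Dusp1, Hspa8, Dnajb1, Hspa1a and Hspa1b were named after their values were seen. Of the listed genes, 2 counted in the totals are not reported here. Positions came from GENCODE M21 (GRCm38). The groups share no replicate number. For DEP against PBS, the p-values of edgeR rest on a spread between mice that is estimated largely by sharing information across all genes tested. In the fits with the mouse as a block, differences in level between mice are removed. There the p-values rest on the spread that remains, estimated in the same way.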

Additional observations from a re-analysis of the deposited data

Results flagged for a closer look

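The log2 fold change of Cdkn1a for DEP against PBS was 1.08 higher in Plac8-high than in C1q-high cells (SE 0.28, adjusted p = 0.0404, edgeR, interaction term), a difference between the classes. Cells of both classes were left out. The DEP mice were higher in Plac8-high cells (756 and 1011 against 580.4 and 462 CPM), and the direction was kept in all 16 alternatives (0.85 to 1.31), but the adjusted p rose to as much as 1 and the call was lost in 12 of them.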

How the results depend on the processing

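The direction of Tiparp for DEP against PBS was kept in 11 of 11 alternatives over all macrophages (log2 fold change -1.21 to -0.41, lowest adjusted p 0.527) and in 14 of 14 in C1q-high cells (-1.36 to -0.59, lowest adjusted p 0.406), and it was never called. Between the classes it was kept in 16 of 16 (0.35 to 0.92, lowest adjusted p 0.0571). Ahr over all macrophages and in Plac8-high cells and every member between the classes likewise kept their direction in all alternatives run.

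Directions changed when 1 mouse was left out. Over all macrophages, leaving out each mouse in turn gave Arnt values from -0.25 (without PBS mouse 3) to 0.75 and Hmox1 values from -0.041 (without DEP mouse 15) to 1.22. In Plac8-high cells they ran from -0.44 (without DEP mouse 14) to 1.64 for Arnt and from -0.86 to 0.21 (without DEP mouse 14) for Tiparp. In C1q-high cells they ran from -0.44 to 0.081 (without PBS mouse 3) for Ahr and from -0.13 (without PBS mouse 3) to 0.86 for Arnt. The difference between the classes in the Tiparp response ran from -0.12 (without DEP mouse 15) to 0.75, and was -0.042 with cells thinned to 1000 UMIs. Sult1a1 between the classes became 0.62 with all deposited cells. The cause was not tested for the thinned and the undivided cells; in the other cases fewer mice were fitted.

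The number of genes called at an adjusted p under 0.05 was unstable. Over all macrophages it was 9 with the likelihood ratio test, 45 with no gene filter, 0 with thinned cells and 0 to 1 with a mouse left out, against 1. In Plac8-high cells it was 13, 37, 2 with all deposited cells, 2 with Plac8 at 0.05% or more of UMIs, 29 without cells of both classes and 12 to 35 with a mouse left out, against 0. In C1q-high cells it was 2, 31, 1 with all deposited cells, 4 with cells left out at 2 markers of another class and 3 to 28 with a mouse left out, against 0. With DESeq2 it was 638 between the classes, where thinned cells gave 468, against 1146. For the DEP effect between the classes it was 0 with DESeq2, 2 with all deposited cells, 3 with thinned cells and 4 to 15 with a mouse left out, against 17. No paired analysis was possible because the groups share no replicate numbers.

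Depth limits these genes. Plac8-high cells held 1 to 7 Arnt UMIs and 3 to 5 Ahr UMIs per mouse, and Ahrr was seen 15 times in all.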
